A study of Arabidopsis thaliana with 8 samples.

Results

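The receptor-like kinase cluster around AT1G51850 is a run of leucine-rich repeat receptor-like kinase genes on chromosome 1 of Arabidopsis thaliana, from AT1G51800 to AT1G51890. Its 10 loci were chosen by gene family and position, and AT1G51850, the gene it is named for, had drawn attention through its large difference between zones 2 and 1 and between zones 4 and 1. Differences from zone 1 are therefore given here as descriptions. The array annotation paired 7 of the 10 loci with a probe set of their own, out of 13333 genes that have one in this series. These were AT1G51805, AT1G51820, AT1G51830, AT1G51840, AT1G51850, AT1G51860 and AT1G51890, each with 1 probe set. The other 3, IOS1 (AT1G51800), AT1G51870 and RHS6 (AT1G51880), had no annotated probe set and were not analysed here.

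Receptor-like kinases are plasma membrane proteins that join an extracellular domain to a cytoplasmic kinase. In leucine-rich repeat kinases of subfamily LRR-I, to which this cluster belongs, the extracellular part also holds a malectin-like domain. Members of the subfamily are known from plant immunity, where they act at the membrane with pattern receptors such as FLS2 and with the co-receptor BAK1, and IOS1 is named for its part in susceptibility to an oomycete. RHS6 is named as a root hair specific gene. Genes of this kind often lie in tandem arrays of close copies.

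Transcript levels were measured on Affymetrix arrays in root sections of the ecotype Columbia, cut into 4 longitudinal zones numbered 1 to 4, with 2 arrays per zone. Every plant had 5 days on MS medium and then 3 hours on sulfur-deficient medium, so zone is the only factor the labels give and no value measures an effect of sulfur. Which zone holds the root tip is not stated in the labels, and neither is whether replicate samples came from separate plants, so p-values measure a spread that may be technical. Whole root sections were used, so fewer cells of a type and less RNA per cell cannot be told apart.

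Array medians ranged from 57.8 to 79.7 signal units, and with 2 arrays per zone the precision of each value is low. The arrays of zone 2 differed from each other in the direction of the zones on either side: over the 13647 probe sets tested, replicate 1 correlated with the zone 1 arrays at a mean r of 0.849 and replicate 2 at 0.754. With the zone 3 arrays the mean r was 0.843 for replicate 1 and 0.88 for replicate 2. As a check of tissue, the meristem gene BBM had signals of 601 and 149 in zone 1, 7.61 and 8.76 in zone 2, 1.6 and 10.8 in zone 3, and 156 and 235 in zone 4. None of the listed vascular, root cap or photosynthesis genes had a named probe set, so those tissues were not checked here.

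AT1G51850 was near the bottom of the scale in zone 1 and bright in zones 3 and 4. Its signals were 2.65 and 0.711 in zone 1, 27.4 and 232 in zone 2, 887 and 484 in zone 3, and 670 and 458 in zone 4. Both zone 1 arrays lay below every other array, and both arrays of zones 3 and 4 lay above both of zone 2, while zones 3 and 4 overlapped. Ranked among all probe sets of their own array, the 2 zone 3 signals stood at percentiles 91.1 and 85.6, against 10.2 and 1.74 for the 2 zone 1 signals.

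**Figure D1:**
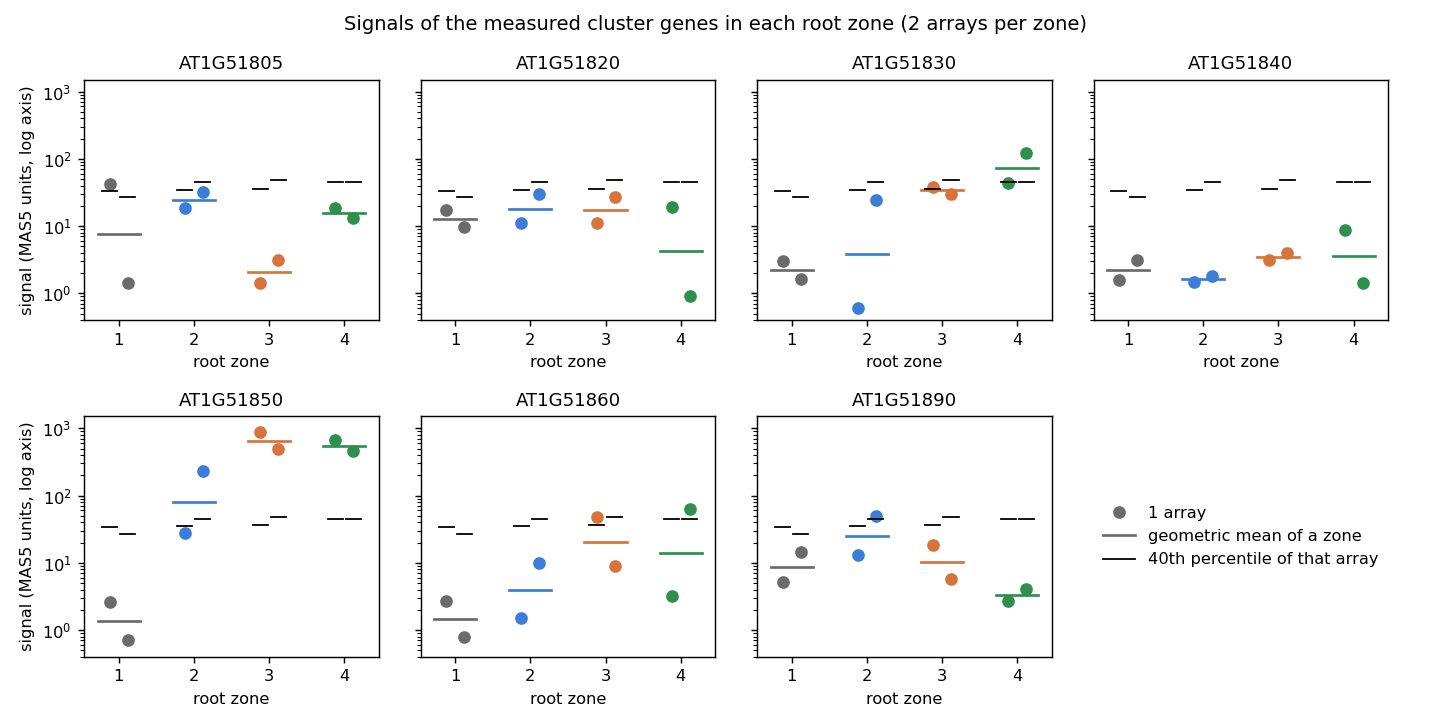
Signal of each measured cluster gene on each of the 8 arrays (dots, log axis, MAS5 units), by root zone, with the geometric mean of a zone as a coloured line and the 40th percentile of each array as a short black line. AT1G51850 lies far below the black lines in zone 1 and far above them in zones 3 and 4, with 887 and 484 in zone 3, while the other genes stay mostly at or below them.

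Zone 1 had a mean AT1G51850 signal of 1.68 ± 1.4, zone 2 of 130 ± 145, zone 3 of 685 ± 285, and zone 4 of 564 ± 150 (SD, n = 2 each). From highest to lowest the order of the zone means was zone 3, zone 4, zone 2 and zone 1, and zones 3 and 4 did not differ beyond their spread. On the log2 scale AT1G51850 was 5.86 higher in zone 2 than in zone 1, 8.90 higher in zone 3 and 8.66 higher in zone 4. These log2 differences depend on very dim zone 1 signals. When every signal under the array's 40th percentile (27.1 to 47.6 units) was set to that percentile, the differences from zone 1 were 1.58 for zone 2, 4.44 for zone 3 and 4.20 for zone 4.

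By limma, a linear model fitted to all 13647 probe sets kept by a filter on low signals, with a call at a Benjamini-Hochberg adjusted p under 0.05 and at least 2-fold, AT1G51850 was called higher in zones 2, 3 and 4 than in zone 1. Calls for a higher signal were made for 7.28% of all probe sets tested in zone 2 against zone 1, for 18% in zone 3 against zone 1 and for 10.5% in zone 4 against zone 1. Since AT1G51850 was put forward for its difference from zone 1, nothing is read from these calls. The call in zone 2 against zone 1 was not made without zone 2 replicate 2, where the log2 difference was 4.32, or with dim signals raised as above. The moderated F-test over all zones, which 26.9% of probe sets passed, also took in zone 1 and called AT1G51850.

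The contrasts among zones 2, 3 and 4 reuse arrays that entered the choice of AT1G51850, and zone 4 against zone 2 is the difference of the 2 contrasts it was chosen by, so its values in them are descriptions too. The 95% intervals given for these contrasts take no account of that choice, so an interval without 0 is not read as a test. Its geometric mean signal was 8.20-fold higher in zone 3 than in zone 2 (log2 difference 3.04, SE 0.91, 95% interval 1.02 to 5.06), and AT1G51850 was not called. Limma called no probe set of the 13647 in zone 3 against zone 2 (0%), where 2470 had an unadjusted p under 0.05. For AT1G51850 the log2 difference was 1.50 when zone 2 replicate 1 was left out and 4.58 when zone 2 replicate 2 was, so the zone 2 array used decided its size.

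Zone 4 against zone 2 gave AT1G51850 a log2 difference of 2.79 (SE 0.91, 95% interval 0.77 to 4.81) and no call, where 0.00733% of probe sets were called. Leaving out zone 2 replicate 1 gave 1.25 and leaving out zone 2 replicate 2 gave 4.34. Zone 4 against zone 3 gave -0.24 (SE 0.91, 95% interval -2.26 to 1.78) and no call, where 2.11% were called. That interval is wide, so equal levels in zones 3 and 4 are not shown. The sign of this last difference turned without zone 3 replicate 1 (0.20) or zone 4 replicate 2 (0.03).

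**Figure D2:**
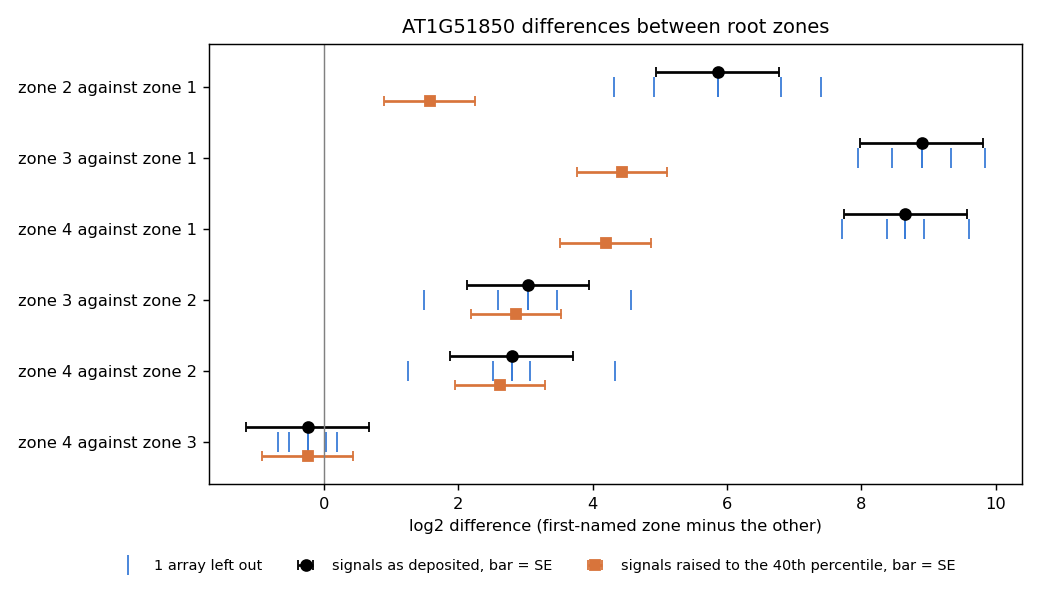
Log2 differences of AT1G51850 between root zones (horizontal axis, first-named zone minus the other), with signals as deposited (black, bar = SE), with 1 array left out (blue ticks) and with dim signals set to the array's 40th percentile (orange, bar = SE). With dim signals raised, zone 3 against zone 1 is at 4.44 in place of 8.90, and those from zone 2 move with the zone 2 array left out.

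The other 6 measured genes were dim. None of them had a mean over the 8 arrays above the filter value of 42.5, so the filter left AT1G51850 as the only cluster gene tested. Of all probe sets paired with 1 gene, 55.7% passed. AT1G51820 and AT1G51840 were above the 40th percentile of their array on 0 of 8 arrays, AT1G51805 and AT1G51890 on 1, and AT1G51830 and AT1G51860 on 2. The deposited table carries no detection calls, so whether a transcript was present at such signals was not tested.

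AT1G51830 and AT1G51860 had their lowest zone mean in zone 1, as AT1G51850 did, although the dimmest single array of AT1G51830 was in zone 2. AT1G51830 had signals of 2.98 and 1.64 in zone 1, 0.614 and 24.8 in zone 2, 38.4 and 30 in zone 3, and 43.6 and 121 in zone 4. Both arrays of zone 3 and both of zone 4 lay above all 4 arrays of zones 1 and 2, and the 2 arrays of zone 4 above the 2 of zone 3. AT1G51860 had 2.7 and 0.796 in zone 1, 1.5 and 10 in zone 2, 47.5 and 8.81 in zone 3, and 3.19 and 63.1 in zone 4. Its zones 3 and 4 each held 1 bright and 1 dim array, so zones 2, 3 and 4 overlapped one another, while both zones 3 and 4 lay above zone 1. Over the 8 arrays the log2 signals of AT1G51830 and AT1G51860 correlated with those of AT1G51850 at r = 0.82 and 0.75. The 8 arrays fall into 4 zones and are not independent points, and 17.6% of all probe sets tested had an r above 0.75 with AT1G51850.

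The remaining 4 genes had other patterns. AT1G51805 had 42.2 and 1.4 in zone 1, 18.9 and 32.1 in zone 2, 1.41 and 3.15 in zone 3, and 18.4 and 13.2 in zone 4. Zone 3 was below zones 2 and 4 without overlap, and the zone 1 arrays were the highest and the lowest of all. AT1G51890 had 5.16 and 14.4 in zone 1, 13.1 and 49.3 in zone 2, 18.2 and 5.73 in zone 3, and 2.68 and 4.04 in zone 4, with both zone 4 arrays below every other array. AT1G51820 ranged from 0.918 to 29.5, with a median of 14.4, and no 2 zones were free of overlap. AT1G51840, the shortest gene of the cluster, stayed between 1.42 and 8.85 with a median of 2.47. The r with AT1G51850 was -0.004 for AT1G51805, -0.06 for AT1G51820, 0.31 for AT1G51840 and -0.11 for AT1G51890.

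With no filter on low signals these 6 genes could be tested in the 3 contrasts among zones 2, 3 and 4, which gives 18 tests. By limma over 22746 probe sets, 0 of the 18 passed, 3 had an unadjusted p under 0.05 and the lowest adjusted p was 0.33. In that fit 0% of all probe sets were called in zone 3 against zone 2, 0.0264% in zone 4 against zone 2, and 1.16% in zone 4 against zone 3. The share at an unadjusted p under 0.05 was not computed without the filter. With the filter, 2470, 1554 and 2546 of 13647 probe sets had such a p in these contrasts, in the same order. Nothing is therefore read from the 3 of 18. The 3 with an unadjusted p under 0.05 were AT1G51830 in zone 4 against zone 2 (log2 difference 4.22, SE 1.50), AT1G51805 in zone 3 against zone 2 (-3.54, SE 1.46) and AT1G51890 in zone 4 against zone 2 (-2.95, SE 1.19). Against zone 1, where the same fit called 5.94%, 22.6% and 8.19% of probe sets in zones 2, 3 and 4, none of the 6 was called either, and the largest log2 differences were 5.03 and 3.94 for AT1G51830 in zones 4 and 3 and 3.80 for AT1G51860 in zone 3. Close copies in a tandem array can share probe signal, and how far the probe sets of this cluster do so was not tested.

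The genes next to the cluster showed both directions. AT1G51790, the gene just before IOS1 and of the same kinase subfamily, had signals of 36.4 and 1.25 in zone 1, 78.6 and 25.4 in zone 2, 190 and 105 in zone 3, and 96 and 157 in zone 4. Zones 3 and 4 lay above zones 1 and 2 without overlap. On the log2 scale AT1G51790 was higher than in zone 1 by 4.39 in zone 3 and by 4.19 in zone 4 (SE 1.27 each). With a zone 1 mean of 18.8, AT1G51790 passed the filter through its high zones, so these differences are descriptions. Farther out on that side, AT1G51730, AT1G51745 and AT1G51750 went the other way in zone 3 against zone 1, with log2 differences of -1.93, -1.11 and -1.83. AT1G51730 and AT1G51745 were called lower (limma, adjusted p = 0.0097 and 0.032), where 20% of probe sets were called lower. AT1G51750 had a zone 3 mean of 32.8, under the filter value, so its difference is a description too. The probe set of AT1G51750, a pseudogene, carries the array maker's suffix for a sequence shared between transcripts. AT1G51810, a kinase gene between AT1G51805 and AT1G51820, ranged from 1.88 to 18.8. On the far side AT1G51900, AT1G51910, AT1G51915 and AT1G51920 did not pass the filter, with highest signals of 35.3, 66.3, 24.5 and 37.8.

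Among the other listed genes of subfamily LRR-I, a few shared the pattern of AT1G51850 and most were dim. Of 33 listed loci that are not cluster members, 26 had a named probe set and 4 passed the filter, AT1G07560, AT1G51790, AT2G28970 and AT3G46400. The list is not only of distant genes: AT1G51810 lies between members, and AT1G51790 and AT1G51910 lie beside them. The filter is on the mean over all arrays, and AT1G51790, AT2G28970 and AT3G46400 had zone 1 means of 18.8, 4.13 and 2.62, so they passed it through the zones where they are high. A count of calls against zone 1 over the genes that passed is therefore not given. None of the 4 was called by limma in the contrasts among zones 2, 3 and 4. Of all probe sets tested, 0% were called in zone 3 against zone 2, 0.00733% in zone 4 against zone 2 and 2.11% in zone 4 against zone 3. Nothing particular to the subfamily is shown.

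AT3G46400 had the widest range of zone means among the listed LRR-I genes that are not cluster members. Its signals were 3.77 and 1.48 in zone 1, 24 and 72.1 in zone 2, 64.5 and 114 in zone 3, and 88.5 and 61.8 in zone 4. Both zone 1 arrays were below all others, and AT3G46400 was higher in zone 3 than in zone 1 by 5.18 on the log2 scale (SE 1.00). It was named for this range and passed the filter through its high zones, so the difference is a description. AT3G21340, the next by range, had 2.15 and 1.75 in zone 1, 3.27 and 4.73 in zone 2, 47.7 and 79.6 in zone 3, and 46 and 49.8 in zone 4. Its zones 3 and 4 were well apart from zones 1 and 2, but its mean did not pass the filter. AT2G28970, named here after its values were seen, had 83.6 and 71.9 in zone 3, against 3.68 and 4.57 in zone 1, and correlated with AT1G51850 at r = 0.98 over the 8 arrays. Over the 26 genes the r with AT1G51850 ranged from -0.46 to 0.98 with a median of 0.36, and 6 exceeded 0.75. Of all probe sets tested, 17.6% exceeded 0.75, and the median over 7507 tested probe sets of 1 gene was -0.04. Only 4 of the 26 passed the filter, so these shares are over unlike sets and nothing is read from the count.

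**Figure D3:**
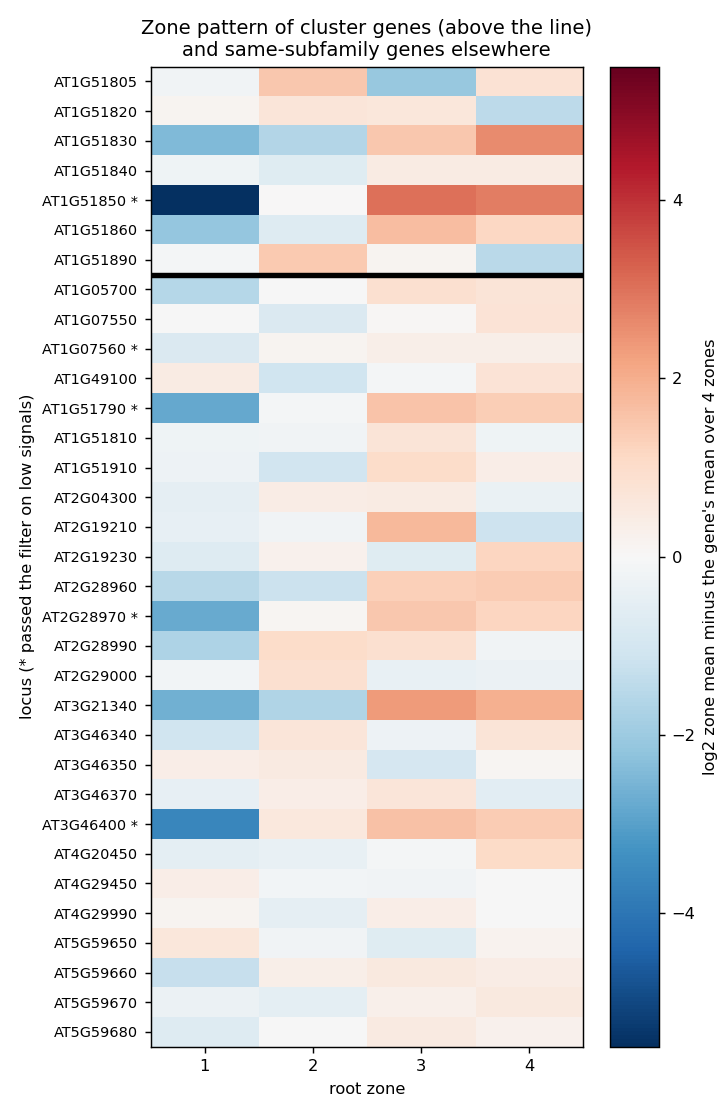
Log2 zone mean of each gene minus its own mean over the 4 zones (colour), with root zone on the horizontal axis. The 7 measured cluster genes are above the black line and the 26 other listed LRR-I genes, some of them next to the cluster, below it. An asterisk marks genes that passed the filter on low signals. AT1G51850, AT1G51830 and AT1G51860 are blue in zone 1 and red in zones 3 and 4, as are AT3G46400, AT3G21340, AT1G51790 and AT2G28970 below the line.

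The genes whose log2 signals were most like those of AT1G51850 over the 8 arrays were AT3G59370 (r = 0.998), AT5G57785 (0.994), AT3G01190 (0.994), AT1G15400 (0.994), AT1G79660 (0.99) and AT1G13930 (0.988), among 7507 other probe sets of 1 gene. AT3G59370 had signals of 1.92 and 0.555 in zone 1, 20.6 and 121 in zone 2, 381 and 305 in zone 3, and 264 and 201 in zone 4. AT3G01190, a class III peroxidase gene, had 70 and 10.7 in zone 1, 341 and 2240 in zone 2, 4544 and 3943 in zone 3, and 4631 and 4299 in zone 4. Both showed the same order of the zone 1 and zone 2 arrays as AT1G51850, with zone 1 replicate 2 lowest and zone 2 replicate 1 well below zone 2 replicate 2. In all, 148 of the 7507 probe sets had an r above 0.95. The genes most unlike it were AT5G20890 (r = -0.98), a subunit gene of the cytosolic chaperonin, BOB1 (-0.979), which encodes a chaperone of the NudC family, and AT5G53800 (-0.979).

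**Figure D4:**
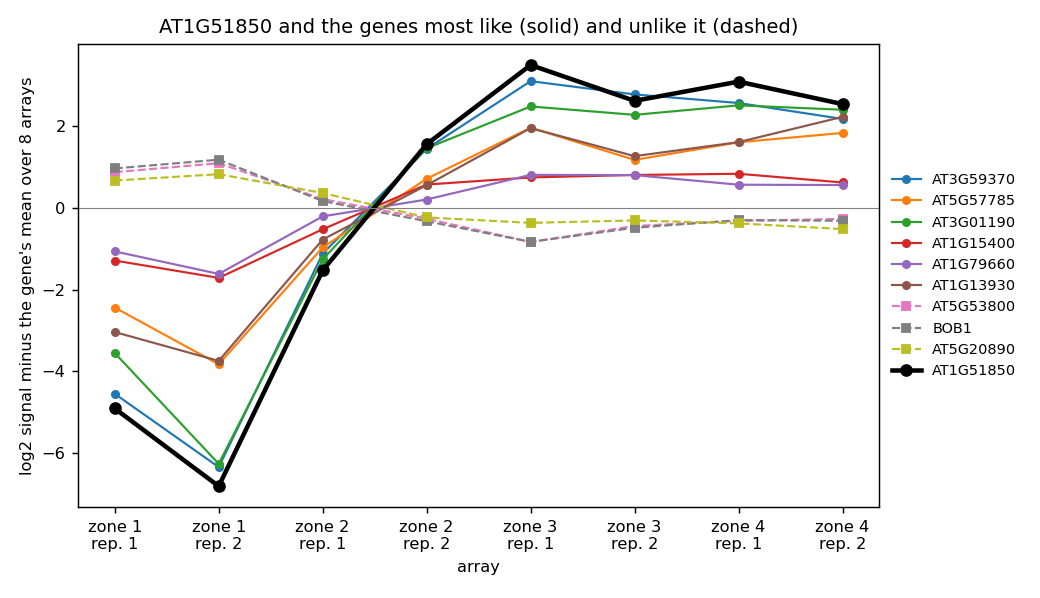
Log2 signal minus the gene's mean over the 8 arrays (vertical axis) on each array (horizontal axis), for AT1G51850 (black), the 6 genes most like it (solid) and the 3 most unlike it (dashed); lines only link the points of a gene. The solid profiles are lowest in zone 1 replicate 2 and pass 0 between the 2 arrays of zone 2.

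Markers of tissue also differed between the zones, the root hair and the meristem genes in different ways. Of 29 listed root hair genes, 3 had a named probe set, EXPA7, EXPA18 and AT1G26250, and their summed signal ranged from 15.8 to 45.2 in zone 1, 60.1 to 105 in zone 2, 237 to 385 in zone 3, and 330 to 1888 in zone 4. EXPA7, an expansin gene of root hair cells, had 17.4 and 4.89 in zone 1, 24.9 and 71.9 in zone 2, 145 and 118 in zone 3, and 164 and 619 in zone 4. EXPA18, another root hair expansin gene, had 26.9 and 3.61 in zone 1 and 154 and 1268 in zone 4, a log2 difference of 5.49. With a zone 1 mean of 15.2, EXPA18 passed the filter through its high zones, so this is a description. AT1G26250 was dim throughout, with a highest signal of 25.7. Over the 8 arrays the r with AT1G51850 was 0.91 for EXPA7, 0.81 for EXPA18 and 0.45 for AT1G26250. Of all probe sets tested, 17.6% had an r above 0.75. EXPA7 and EXPA18 were brightest in zone 4 replicate 2, where AT1G51850 had its lowest signal of zones 3 and 4. Of 14 listed meristem genes 4 had a named probe set, BBM, AUR1, AUR2 and AUR3, and their summed signal was 1603 to 3421 in zone 1, 865 to 921 in zone 2, 184 to 478 in zone 3, and 1445 to 1865 in zone 4. The meristem sum was thus high in both zones 1 and 4, while AT1G51850 was low in zone 1 and high in zone 4. The part of cell makeup in the levels of AT1G51850 was not tested. The ratio of 3' to 5' signal for the control transcript GAPDH had both its extremes in zone 1, 64.3 in replicate 1 and 13.2 in replicate 2. AT1G51850 was at 2.65 and 0.711 on those arrays. The RNA was amplified first, so the ratio does not measure RNA integrity alone. The part of RNA quality in these signals was not tested.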

How the data were processed

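The authors deposited linear intensity values (signals) for each probe set on each array, made with MAS5 per the submitters' processing notes, after a two-cycle amplification per the labels' protocols. The 2% trimmed mean was 250.0 on all 8 arrays. Of 22746 probe sets without controls, 13513 were paired with 1 gene, 503 with several and 8730 with none by the platform annotation. Of the 13513, 13484 matched a locus of assembly TAIR10.1, used for names and gene order only.

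Log2 signals had no offset, and the lowest 40% of probe sets by mean signal (42.5 or less) were left out. A model with a mean for each zone was fitted to the other 13647 with limma 3.58.1 (R 4.3.3), with eBayes and trend, and 4 residual and 6.5 prior degrees of freedom. Tests are two-sided, adjusted over all probe sets tested, and SDs are of 2 arrays. The fit was tested on simulated data. The labels do not say whether the replicate numbers pair the arrays, and the main model did not pair them. The differences between replicates correlated between zones at -0.19 to 0.04, which cannot settle whether replicates shared a harvest or batch. Tables and plots used Python 3.11.15, pandas 2.3.3, numpy 2.4.6 and matplotlib 3.10.9.

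The members, lists and alternatives were chosen with earlier results of these data known. Outside the cluster, the rule named the 6 genes most and 3 least correlated with AT1G51850, up to 3 genes per list by range of zone means, and the 4 nearest measured genes on each side. Alternatives were quantile normalization, median centring, filters at 60% or none, a floor at each array's 40th percentile, an added offset of 32, other prior variances, a replicate block, no minimum fold and leaving out each array.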

Additional observations from a re-analysis of the deposited data

How the results depend on the processing

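Counts of called cluster genes were recomputed under 10 settings and with each of the 8 arrays left out. The count was 1 in zone 3 against zone 1, in zone 4 against zone 1 and, where run, in the F-test, and 0 in the contrasts among zones 2, 3 and 4, in all of these runs. In zone 2 against zone 1 it was 1, except 0 with a floor at the 40th percentile and 0 to 1 with 1 array left out. It was 0 without zone 2 replicate 2, where AT1G51850 had a log2 difference of 4.32. Zone 4 against zone 3 had a difference of -0.24 for AT1G51850, which ranged from -0.68 to 0.20 with 1 array left out and turned positive without zone 3 replicate 1 (0.20) or zone 4 replicate 2 (0.03). With an offset of 32 its differences from zone 1 were 1.90, 4.35 and 4.12 in zones 2, 3 and 4. The replicate block changed no call and left its zone 3 against zone 2 difference at 3.04. Of 576 values of the 6 dim genes across settings, 31 moved by more than 1 SD. All 31 came from quantile normalization, the offset of 32 or the floor. Leaving out an array, dropping the filter, other prior variances and the replicate block could not move a value that far. The count is therefore no measure of how stable these values are. Signal over background limits all 6, and 2 arrays per zone limit every contrast.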

Other observations

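Immune genes outside the kinase subfamily were sparsely covered. Of 14 listed immune receptors, co-receptors and their kinases, 2 had a named probe set. BIK1, a cytoplasmic kinase that acts below pattern receptors, had signals of 78.6 and 57.2 in zone 1, 109 and 80.7 in zone 2, 268 and 105 in zone 3, and 246 and 245 in zone 4. It was called higher than in zone 1 in zone 3 (log2 difference 1.32, SE 0.46; limma, adjusted p = 0.043) and in zone 4 (1.87, SE 0.46; limma, adjusted p = 0.025). Of all probe sets tested, 18% and 10.5% were called higher in these contrasts. Zone 3 replicate 2 of BIK1 lay between its zone 2 arrays. EFR, a receptor for a bacterial elongation factor, was below the 40th percentile on all 8 arrays, with a highest signal of 31.2.

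Of 17 listed genes that respond to immune signalling 7 had a named probe set, AT1G51820 of the cluster among them, and 4 passed the filter. None of the 4 was called in any of the 6 contrasts. Of all 13647 probe sets tested, 1645, 5192 and 1957 were called in zones 2, 3 and 4 against zone 1. The shares were 0% in zone 3 against zone 2, 0.00733% in zone 4 against zone 2 and 2.11% in zone 4 against zone 3. With 4 genes, the lack of calls says little beside these shares. WRKY53, a transcription factor gene, had 289 and 216 in zone 4, against 87.6 and 51 in zone 1 (log2 difference 1.90). It was named for its range of zone means, so the difference is a description. The others that passed the filter, WRKY22, STZ and AT3G57450, had log2 differences of 0.78, 0.67 and 0.17 in zone 4 against zone 1. Of 12 listed endodermis genes 1 had a named probe set, AT1G61590, with 63.1 and 376 in zone 4, against 163 and 3.35 in zone 3, and it was not called in any contrast.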
